A study of Bos taurus with 12 samples.

Results

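Integrins and laminins, the receptors and the sheet-forming proteins of cell adhesion to basement membranes, were described in bovine endometrium through every gene on the array whose symbol begins with ITGA, ITGB, LAMA, LAMB or LAMC. Partner proteins such as ITGB1BP1 (3 genes) and the lysosomal LAMP genes were left out. The rule took 38 of the 17564 named genes, 26 in the integrin families and 12 laminin chains, which 45 of the 26323 transcripts on the array represented. ITGBL1, a secreted protein that resembles integrin beta chains and is not a receptor subunit, met the rule and is counted with the integrins.

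The study asked how ageing affects the endometrium, the inner lining of the uterus, on Day 15 of the estrous cycle. RNA of endometrial biopsies was hybridized in 1 colour to 1 array per animal, from 4 old females (OF, 13 to 14 years, nulliparous) and 4 young females (YF, 4 to 5 years, primiparous), all of them Holstein clones of a single donor cow. Every OF was nulliparous and every YF primiparous, so that age and parity cannot be told apart. The third group, 4 cows labelled contemporary, has no age, parity or origin in the labels or the paper, and cow 1111 of this group was left out because its label says that the authors did so, which left 3. Slide 1 carried OF 0245, YF 1070, YF 1072 and cow 1111, and slide 2 carried the other 3 OF, the other 2 YF and the 3 contemporary cows.

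As background, an integrin is an alpha chain and a beta chain that together span the cell membrane, hold extracellular matrix or another cell on the outside and connect to actin inside through talin, kindlin and the ILK complex. A laminin is an alpha, a beta and a gamma chain wound together, and laminins form the basement membrane under epithelium and around smooth muscle and endothelium. In the ruminant uterus, integrins of the luminal epithelium and their ligands are known for their part in the attachment of the conceptus.

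Each value below is a log2 intensity relative to the 75th percentile of its array, so that 0 is that percentile, and a gene is represented by its transcript with the highest mean level. These are levels of 1 gene between animals and are not compared between genes, because probes differ in how they hybridize. Of the spots of an array, 71.6% to 74.9% stood well above background, and precision is set by the number of animals. A gene was tested in a comparison when a probe of its transcript was well above background on every array of either group, which 30 of the 38 genes met in at least 1 comparison (21 integrin genes and 9 laminin genes). The counts below cover those 30 and not all members. The genes not tested were ITGA4, ITGA11, ITGAD, ITGAM, ITGB6, LAMA1, LAMB4 and LAMC3. ITGAM, a chain of myeloid cells, was well above background on 0 of the 11 arrays compared, and ITGA4, the alpha chain that pairs with ITGB7 on lymphocytes, on 1 of them (contemporary cow 1128).

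Each of the 38 genes was read by 2 different probe sequences of 60 bases, although 112 probe names covered only 89 different sequences among the 45 transcripts and 11 genes had a sequence under more than 1 name. For ITGA2, ITGA3, ITGAL, ITGB1, ITGB2, LAMB1 and LAMB3 the 2 sequences overlapped by 32 to 57 bases, so that their agreement is that of neighbouring stretches of 1 site. The pairs printed with the genes below are those of the members the results turn on, in lower case, with capitals for bases that both probes of a pair share. Positions are those of the array's annotation, bovine build UMD3.1.

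Between OF and YF, 0 of the 30 tested genes passed the threshold. The largest positive log2 differences were those of ITGA8, ITGB7, ITGA1 and ITGA7, and the largest negative ones those of LAMB3, ITGAV, LAMA2 and ITGB8. Limma called 0 of 30 members at an adjusted p of 0.05, as it called 0% of the 19755 transcripts tested. The smallest adjusted p among all transcripts was 0.676. At an unadjusted p of 0.05 limma gave 1 of 30 (LAMA2) against 2.42% of all transcripts. The groups did not overlap for 0 of 30 members, against 1.54% of all transcripts. The members had a median log2 difference of 0.09, with 19 higher and 11 lower in OF, and all transcripts a median of 0.0098. With each animal left out in turn, the number of members higher in OF ran from 13 to 22 of 30. FCROS, the fold change rank ordering that the paper used, called 3 of the 38 members higher in OF (ITGA8, ITGB7 and ITGA1), against 2.88% of all transcripts, and 1 lower (ITGB6), against 2.06%. The ITGB6 call rests on probes that were well above background on 2 of 4 OF and 2 of 4 YF.

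ITGA8, which pairs with ITGB1 and binds nephronectin and other matrix proteins (chr13:30340780-30527982), and ITGA1, the alpha chain of a collagen and laminin receptor (chr20:26116747-26227530), are shown with ITGB7, the beta chain of the lymphocyte receptors that hold MAdCAM and E-cadherin (chr5:26958461-26973297), because FCROS called these 3 genes higher in OF and their probes do not overlap.
ITGA8 probe 1: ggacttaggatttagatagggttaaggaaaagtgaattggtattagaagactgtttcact
ITGA8 probe 2: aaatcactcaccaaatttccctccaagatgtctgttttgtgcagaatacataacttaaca
ITGA1 probe 1: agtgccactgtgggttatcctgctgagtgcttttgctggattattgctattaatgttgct
ITGA1 probe 2: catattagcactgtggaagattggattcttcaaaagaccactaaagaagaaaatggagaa
ITGB7 probe 1: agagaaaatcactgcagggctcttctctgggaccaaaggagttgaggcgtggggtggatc
ITGB7 probe 2: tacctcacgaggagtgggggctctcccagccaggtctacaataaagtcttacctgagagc
The ITGA8 level was -0.46, -1.65, -2.36 and -2.74 in OF 2258, 0234, 0233 and 0245, and -2.23, -2.43, -3.14 and -3.58 in YF 1069, 1072, 1070 and 1127. OF 2258 and OF 0234 lay above all YF and the other 2 OF lay among them. ITGA8 was thus 1.04 higher in OF (SE 0.51, n = 4 and 4, 95% interval -0.13 to 2.21) and did not pass limma's adjusted p. Its 2 probes gave 1.10 and 0.98. The difference was 0.04 within slide 1, 1.41 within slide 2 and 0.92 with slide as a block, and 0.59 without OF 2258.

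The ITGA1 level was 0.78, -0.31, -0.39 and -0.97 in OF 2258, 0233, 0234 and 0245, and -0.58, -0.80, -0.99 and -1.44 in YF 1069, 1072, 1070 and 1127. Thus 3 of 4 OF lay above all YF and OF 0245 lay within their range. The log2 difference was 0.73 (SE 0.36, n = 4 and 4), -0.08 within slide 1 and 1.03 within slide 2, 0.64 with slide as a block and 0.39 without OF 2258. The ITGB7 level was 0.97, 0.02, -0.55 and -0.61 in OF 2258, 0234, 0245 and 0233, against -0.42, -0.81, -0.82 and -1.11 in YF 1072, 1070, 1069 and 1127. Again OF 2258 and OF 0234 were the 2 animals above all YF. The difference was 0.75 (SE 0.35, n = 4 and 4), 0.07 within slide 1, 1.09 within slide 2, 0.73 with slide as a block and 0.41 without OF 2258.

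ITGA7, a laminin receptor chain best known from muscle, followed another order. Its level was 0.76, 0.43, 0.25 and -0.23 in OF 0245, 0233, 0234 and 2258, and 0.78 in YF 1072 against -0.58, -0.78 and -0.85 in YF 1070, 1127 and 1069. All 4 OF lay above 3 of the YF and below YF 1072, and here OF 2258 was the lowest OF. The log2 difference of 0.66 (SE 0.38, n = 4 and 4) was 0.66 within slide 1, 0.97 within slide 2 and 0.86 with slide as a block, and 1.04 without YF 1072. ITGA5, the alpha chain of the fibronectin receptor, differed by 0.28 (SE 0.24), by 0.10 without YF 1127 and by -0.01 with the smooth muscle marker level as a covariate. ITGB3, the beta chain of platelet and vitronectin receptors, was well above background on 4 of 4 OF and 3 of 4 YF. It passed the filter only through OF, so the size of its difference is not used.

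Among the laminins, LAMA2, the alpha chain of the laminin of muscle and stromal basement membranes (chr9:68129102-68665593), had the only interval of this comparison that leaves out 0, and its probes are shown for that reason.
LAMA2 probe 1: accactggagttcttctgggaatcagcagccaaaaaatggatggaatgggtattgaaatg
LAMA2 probe 2: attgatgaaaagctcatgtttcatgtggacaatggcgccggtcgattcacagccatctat
The LAMA2 level was 0.50, 0.44, -0.05 and -0.09 in OF 0233, 0234, 0245 and 2258, and 1.13, 0.86, 0.66 and 0.38 in YF 1070, 1072, 1069 and 1127. Only YF 1127 lay among the OF, and 2 OF lay below all YF. The log2 difference was -0.56 (SE 0.22, n = 4 and 4, 95% interval -1.06 to -0.06) and did not pass limma's adjusted p. Within slide 1 it was -1.05, within slide 2 -0.23, and -0.52 with slide as a block. It lay between -0.68 and -0.43 when each animal was left out in turn. Its 2 probes gave -0.55 and -0.56.

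LAMB3, the beta chain that joins LAMA3 in the laminin to which epithelial hemidesmosomes attach, also had a lower mean in OF. So did ITGAV, the alpha chain of the vitronectin and osteopontin receptors. Among its partners, so did ITGB8, known for the activation of latent TGF-beta, and ITGB5. ITGB1, the beta chain common to most matrix receptors, had a mean of 3.38 in OF and 3.23 in YF. The LAMB3 probes (chr16:75567714-75610920) share 55 of their 60 bases, and those of ITGB8 (chr4:29124581-29216280) share none.
LAMB3 probe 1: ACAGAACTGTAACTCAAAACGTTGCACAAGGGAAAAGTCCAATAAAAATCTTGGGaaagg
LAMB3 probe 2: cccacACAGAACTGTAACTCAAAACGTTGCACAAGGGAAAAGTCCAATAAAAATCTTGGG
ITGB8 probe 1: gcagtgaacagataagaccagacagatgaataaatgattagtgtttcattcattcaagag
ITGB8 probe 2: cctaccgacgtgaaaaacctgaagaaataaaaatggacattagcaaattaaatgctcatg
The LAMB3 level was 1.87, 0.67, 0.42 and -0.44 in OF 0245, 0233, 0234 and 2258, and 2.02, 1.44, 1.23 and 0.23 in YF 1070, 1072, 1069 and 1127. Only OF 2258 lay below all YF. The log2 difference was -0.60 (SE 0.52, n = 4 and 4), 0.14 within slide 1, -0.52 within slide 2, -0.28 with slide as a block and -0.25 without OF 2258.

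The ITGB8 level was -2.74, -2.89, -3.94 and -5.55 in OF 0233, 0245, 0234 and 2258, and between -3.43 and -3.04 in the 4 YF. The OF thus lay on both sides of a narrow YF range. The log2 difference of -0.55 (SE 0.56, n = 4 and 4) was 0.34 within slide 1, -0.84 within slide 2 and -0.42 with slide as a block, and it turned to 0.04 without OF 2258. The ITGAV level was -3.69, -4.44, -4.59 and -6.16 in OF 2258, 0233, 0234 and 0245, and -3.63, -3.68, -4.29 and -5.02 in YF 1069, 1072, 1070 and 1127. OF 0245 alone lay below all YF, and 1 of the 2 probes was not well above background on its array. The difference was -0.56 (SE 0.53, n = 4 and 4), -2.17 within slide 1, 0.09 within slide 2, -0.72 with slide as a block and -0.08 without OF 0245. ITGB5 differed by -0.28 (SE 0.36), 0.06 within slide 1, -0.12 within slide 2, -0.06 with slide as a block and -0.06 without OF 2258. Over all 30 members, the 2 probes gave the same sign for 27 in this comparison.

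**Figure D1:**
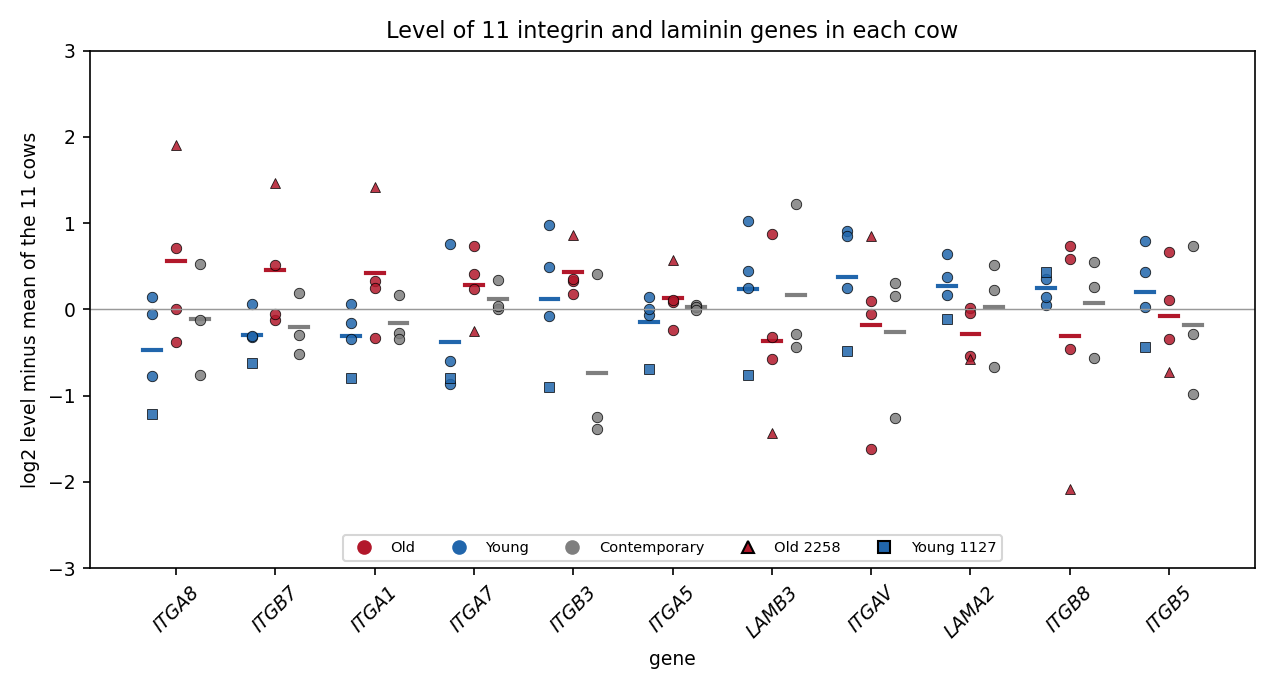
Level of 11 members named for Old minus Young in each of 11 cows (y axis, log2, minus the mean of the 11 cows; points, cows; short lines, group means of 4 OF, 4 YF and 3 contemporary cows). ITGB3 is drawn although it passed the filter only through OF, and the size of its difference is not used. OF 2258 is the highest OF for ITGA8, ITGB7 and ITGA1 and the lowest for LAMB3 and ITGB8.

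Single animals set the outer limits of many members. OF 2258 was the highest of the 11 cows for 9 of the 30 tested members and the lowest for 6, that is 15 in all, where it was the highest or lowest for 44.7% of all transcripts tested in any comparison. YF 1127 was the lowest for 14 of the 30 (46.7%) and was the highest or lowest for 23.2% of all transcripts. The members lowest in YF 1127 included ITGB1, the beta chain common to most matrix receptors, with 3.00 against 3.07 to 4.02 in the other 10 cows, and LAMC1, the gamma chain of most laminins, with -3.01 against -2.32 to -1.72. This holds for the ITGB1 transcript used. In the other ITGB1 transcript OF 0245 was the lowest with -1.48, and YF 1127 had -0.68.

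Marker genes of smooth muscle, the tissue of the myometrium beneath the endometrium, stood apart in OF 2258 and OF 0234. Of 12 smooth muscle genes, 10 were used, ACTG2 was not matched to a transcript and SYNM was not tested. Their mean level, taken as the deviation from the mean of the 11 cows, was 3.84, 2.26, -0.30 and -0.96 in OF 2258, 0234, 0245 and 0233, and 0.02, -0.59, -0.98 and -1.37 in YF 1072, 1069, 1070 and 1127. The contemporary cows 1068, 1129 and 1128 had -0.37, -0.72 and -0.82. ACTA2, a gene of this list, was at 8.71 in OF 2258, 7.47 in OF 0234 and between 3.62 and 5.08 in the other 9 cows. The OF and YF means of the list differed by 1.94. With this level as a covariate, the Old minus Young difference was 0.16 for ITGA8, 0.12 for ITGB7, 0.21 for ITGA1 and -0.07 for LAMB3, and it turned to 0.50 for ITGB8 and 0.09 for ITGB5. It was 0.82 for ITGA7, -0.49 for LAMA2 and -1.22 for ITGAV. The part of smooth muscle tissue in these differences was not tested. In a biopsy, a change in the number of cells of a type and a change in RNA per cell cannot be told apart.

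The other marker lists set the tissue beside this. All 8 epithelial genes and all 7 stromal genes were well above background on all 12 arrays. The epithelial level was 0.92, 0.62, -0.14 and -1.82 in OF 0245, 0233, 0234 and 2258, 0.69, 0.38, 0.29 and -1.07 in YF 1070, 1127, 1072 and 1069, and 0.26, 0.14 and -0.26 in contemporary cows 1128, 1129 and 1068. KRT8 was at 0.91 in OF 2258, 2.19 in YF 1069 and between 3.08 and 4.33 in the other 9 cows. The stromal level ran from -0.52 in OF 0245 to 0.66 in YF 1069, the leukocyte level (10 of 10 genes) from -0.39 in YF 1069 to 0.44 in contemporary cow 1129, and the endothelial level (8 of 8) from -0.71 in YF 1127 to 0.75 in contemporary cow 1068. Of 5 platelet genes, 2 were used, GP9 and GP1BB were not matched and PPBP was not tested, and their level ran from -0.82 in YF 1127 to 1.12 in contemporary cow 1129.

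Within groups, members followed the epithelial level in opposite directions. Each transcript was fitted by limma on the list level with the group as a second term over the 11 cows, so that a slope is the log2 change per unit of list level between animals of 1 group. For the epithelial level, 10 of 30 members passed an adjusted p of 0.05 (33.3%), against 19.8% of the 20082 transcripts, 5 with a positive and 5 with a negative slope. Among the positive ones were integrins of epithelium: ITGB8 with 0.78 (SE 0.18, adjusted p 0.0166), ITGA3, a laminin receptor chain of basal epithelium, with 0.69, and ITGB4 and ITGA6, the chains of the hemidesmosome receptor, with 0.65 and 0.59. The negative ones were LAMA4, the laminin alpha chain of endothelial and smooth muscle basement membranes, with -0.78 (SE 0.15, adjusted p 0.00791), ITGA8 with -0.76 (SE 0.15, adjusted p 0.00824), ITGA1 with -0.50, LAMB1, a beta chain of most mesenchymal laminins, with -0.46, and ITGB1 with -0.34.

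Of these genes, LAMA4 (chr9:38644310-38810902) with the most negative slope and ITGA3 (chr19:37198628-37208180) with a positive one are shown.
LAMA4 probe 1: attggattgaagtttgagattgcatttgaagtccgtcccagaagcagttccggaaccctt
LAMA4 probe 2: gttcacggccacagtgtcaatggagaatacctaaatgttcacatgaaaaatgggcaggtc
ITGA3 probe 1: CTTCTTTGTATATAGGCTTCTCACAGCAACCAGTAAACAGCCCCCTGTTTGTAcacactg
ITGA3 probe 2: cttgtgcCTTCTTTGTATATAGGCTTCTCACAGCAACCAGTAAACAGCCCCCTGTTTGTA
The LAMA4 level was 0.71, -0.03, -1.27 and -1.53 in OF 2258, 0234, 0245 and 0233, 0.46, -0.55, -0.76 and -1.45 in YF 1069, 1070, 1072 and 1127, and -0.21, -0.44 and -0.49 in contemporary cows 1129, 1128 and 1068. It was thus highest in OF 2258 and YF 1069, the 2 cows with the lowest epithelial level. The ITGA3 level was -0.26 in OF 2258 and 0.14 in YF 1069, 0.40, 1.10 and 1.78 in OF 0234, 0233 and 0245, 0.40, 1.08 and 1.76 in YF 1127, 1072 and 1070, and 0.71, 0.75 and 1.37 in contemporary cows 1068, 1129 and 1128. Here the same 2 cows were the lowest. Between OF and YF as groups neither gene differed beyond its spread, with log2 differences of 0.05 (SE 0.57, n = 4 and 4) for LAMA4 and -0.09 (SE 0.49) for ITGA3, which was 0.36 within slide 1, 0.14 within slide 2 and 0.22 with slide as a block. LAMA4 was -0.62 within slide 1, 0.21 within slide 2 and -0.08 with slide as a block.

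For the smooth muscle level, 4 of 30 members passed (13.3%), against 3.50% of all transcripts. ITGB8 fell with it (slope -0.54, SE 0.09, adjusted p 0.0152), and LAMA4 (0.47, SE 0.11, adjusted p 0.0478), ITGA8 (0.46, SE 0.11, adjusted p 0.0472) and ITGB7 (0.32, SE 0.07, adjusted p 0.0369) rose with it. For the leukocyte level limma called 0 of 30, against 0% of all transcripts, with 6 members at an unadjusted p of 0.05 against 18.4% of all transcripts, and for the endothelial level 0 of 30, against 0%, with 2 at that p against 5.67%.

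The calls did not hold without OF 2258. The epithelial slopes of LAMA4, ITGA3, ITGB4 and LAMB1 were no smaller without this cow, but less precise (LAMA4, SE 0.15 with it and 0.25 without). Those of ITGA8, ITGB8, ITGA1, ITGA6 and ITGB1 were smaller. Without OF 2258, 0 members passed for either level, while 603 of all transcripts still did for the epithelial and 32 for the smooth muscle level. The slopes without it were -0.87 for LAMA4, 0.84 for ITGA3, -0.74 for ITGA8, 0.66 for ITGB4, -0.49 for LAMB1, 0.38 for ITGB8, -0.37 for ITGA1, 0.31 for ITGA6 and -0.29 for ITGB1 on the epithelial level, and 0.47 for LAMA4, 0.40 for ITGA8, 0.23 for ITGB7 and -0.35 for ITGB8 on the smooth muscle level. Leaving out the 2 cows farthest from the median of a list (OF 2258 with YF 1069 for the epithelial, OF 2258 with OF 0234 for the smooth muscle level), or entering both levels in 1 fit, gave 0 members each, in alternatives chosen after seeing the data. Without the 2 cows the epithelial slope was 1.31 for ITGA3, -1.14 for ITGA8, 0.81 for ITGB8, -0.79 for LAMA4 and -0.47 for ITGA1. It was -0.39 for LAMB1, 0.28 for ITGB4, -0.24 for ITGB1 and 0.08 for ITGA6. The smooth muscle slope was then 0.76 for ITGA8, 0.45 for LAMA4, 0.29 for ITGB7 and -0.21 for ITGB8. Of all transcripts, 0 passed for either level without the 2 cows, and 32 for the smooth muscle and 42 for the epithelial level with both in 1 fit. In that fit the epithelial slope was 0.79 (SE 0.22) for ITGB4, 0.75 (SE 0.25) for ITGA3, -0.52 for LAMA4, -0.50 for ITGA8, -0.44 for ITGA1, -0.35 for LAMB1, -0.32 for ITGB1, 0.28 for ITGB8 and 0.27 for ITGA6, and the smooth muscle slope -0.40 for ITGB8, 0.32 for ITGB7, 0.21 for ITGA8 and 0.21 for LAMA4. Of these slopes, 0 passed the adjusted p. The smooth muscle count was also 0 without OF 0233 and without OF 0245, 1 without YF 1070, YF 1127 or contemporary cow 1128, 2 without contemporary cow 1068, and 2 with quantile normalization, against 1.07% to 2.52% of all transcripts in these settings. With slide as a block the counts were 11 for the epithelial level, the 10 among them, against 14.2% of all transcripts, and 1 (ITGB8, slope -0.52) for the smooth muscle level, against 2.54%. Slide 1 holds 3 cows, too few for a slope, and the 8 cows of slide 2, a setting chosen after seeing the data, gave 6 (LAMA4 -0.92, ITGA8 -0.84, ITGA6 0.81, LAMB1 -0.55, ITGA1 -0.53 and ITGB1 -0.42) and 0, against 9.64% and 0.886%.

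**Figure D2:**
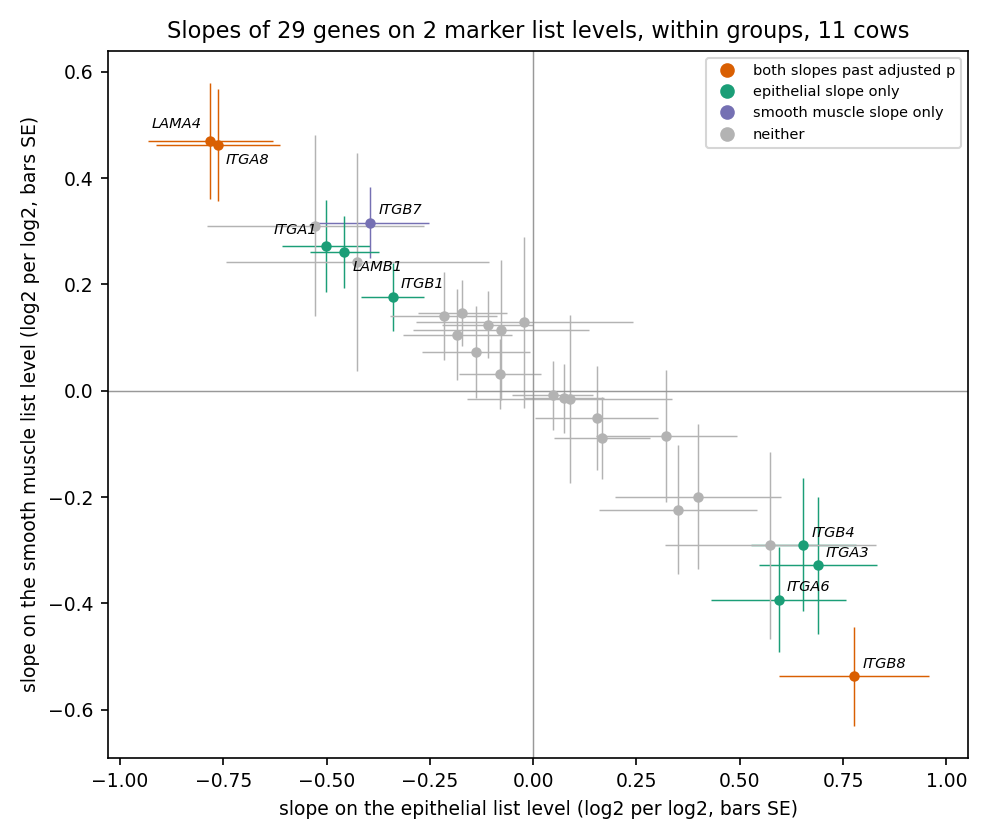
Slope of each of 29 members on the epithelial list level (x axis) and on the smooth muscle list level (y axis), both log2 per log2 within groups over 11 cows, with bars of 1 SE and colours for limma's adjusted p of 0.05. ITGB8 lies at 0.78 and -0.54, and LAMA4 at the opposite end at -0.78 and 0.47.

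**Figure D3:**
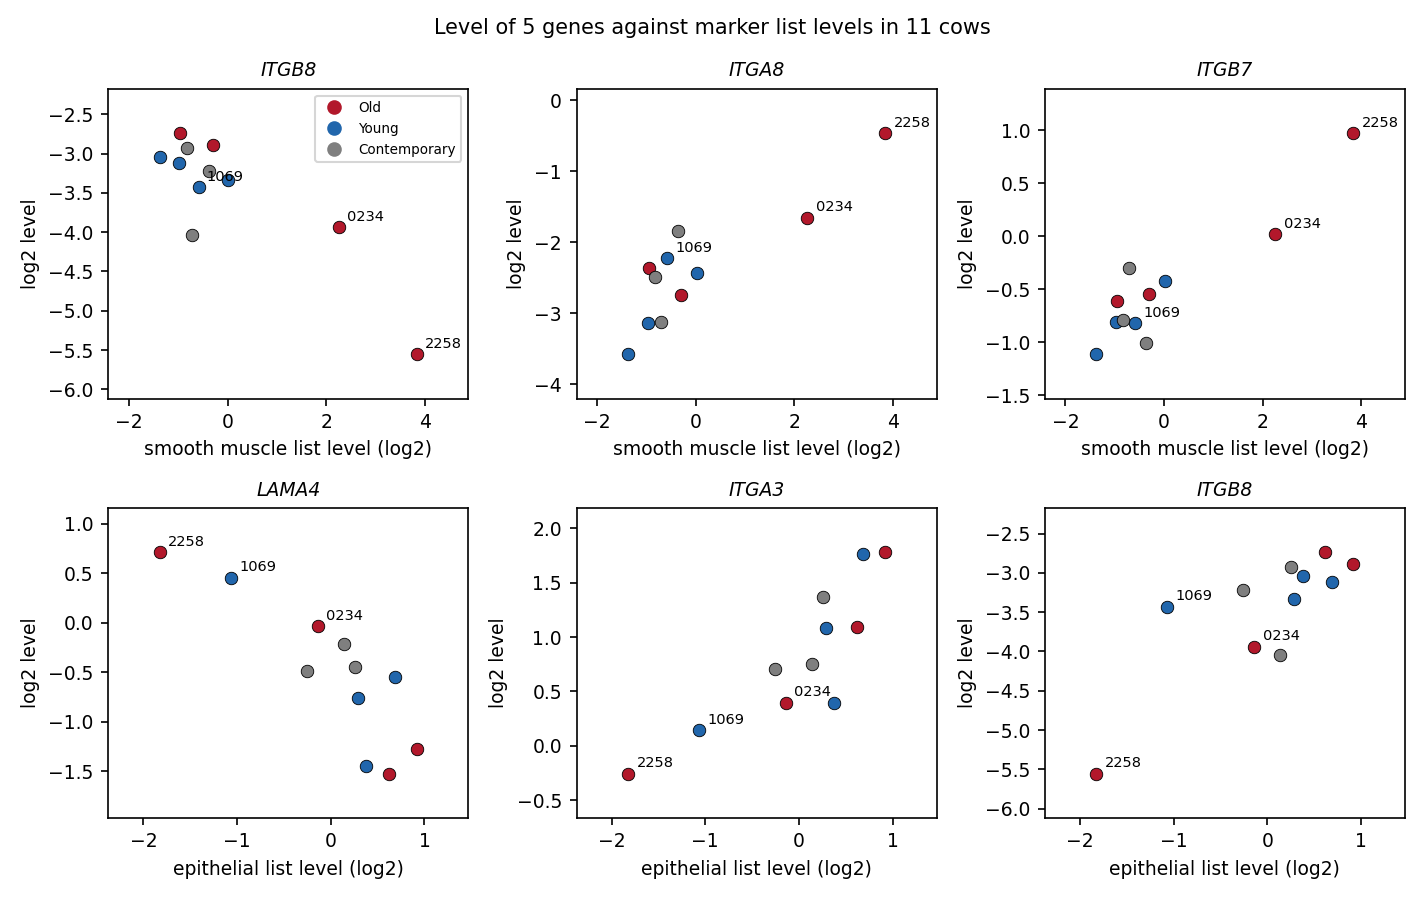
Log2 level of 5 members in 11 cows (y axis) against the level of a marker list in the same cow (x axis, log2), with OF in red, YF in blue and contemporary cows in grey. The smooth muscle panels are drawn out by OF 2258 at 3.84 and OF 0234 at 2.26, and the epithelial panels by OF 2258 at -1.82 and YF 1069 at -1.07.

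Genes that act with integrins and laminins were taken as 4 lists. Of 25 proteins of the adhesion complex on the inner side of integrins, 22 were tested between OF and YF (FERMT3, PARVG and PXN were not), and 19 were higher and 3 lower in OF, with a median log2 difference of 0.65 against 0.0098 for all transcripts. Limma called 0 of them at the adjusted p and 2 at the unadjusted p, against 2.42% of all transcripts, 1 of them TNS3, which passed the filter only through YF. The groups did not overlap for 1 of the 22, against 1.54% of all transcripts. This was VASP, which promotes actin assembly at adhesions and was singled out after its values were seen. LIMS2, a partner of ILK, was at 4.24, 2.71, 0.85 and 0.11 in OF 2258, 0234, 0245 and 0233, and between 0.13 and 0.73 in the YF, so that the OF lay both above and below them. It differed by 1.61 (SE 0.80, n = 4 and 4), 0.27 within slide 1, 2.20 within slide 2 and 0.85 without OF 2258, and FLNA, the actin crosslinker filamin A, by 1.57 (SE 0.85), 0.09 within slide 1, 2.25 within slide 2 and 0.79 without OF 2258. TNS3, a tensin that ties beta chains to actin, was well above background on 2 of 4 OF and 4 of 4 YF. PTK2, the focal adhesion kinase, differed by -0.18 (SE 0.12, -0.08 and -0.22 within the slides).

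Part of the adhesion genes followed the smooth muscle level between animals. Of 23 tested, 13 had a positive slope on the smooth muscle level (2.70% of all transcripts) and 13 a negative slope on the epithelial level (9.29% of all transcripts) past the adjusted p, and 0 had a slope of the other sign past it. Without OF 2258 these counts were 1 and 0, against 0.159% and 1.46% of all transcripts. Without the 2 cows farthest from the median of each level they were 0 and 0, against 0% of all transcripts for both. In Old minus Young, without OF 2258, the list had 17 higher and 5 lower, with a median of 0.23, and with the smooth muscle level as a covariate 10 higher and 12 lower, with a median of -0.02. FLNA then differed by -0.07 and LIMS2 by 0.06. The part of smooth muscle tissue in the list's difference was not tested. The other 3 lists, described below, also held slopes past the adjusted p over the 11 cows. On the epithelial level 5 of 10 other laminin receptors, 4 of 12 integrin ligands and 1 of 11 basement membrane partners had a negative slope. A positive one was found for 1 laminin receptor (10.5% of all transcripts). On the smooth muscle level 2, 0 and 1 had a positive slope and 0 a negative one.

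Of 15 integrin ligands, 12 were tested (VTN, SPP1 and EDIL3 were not), with 7 higher and 5 lower in OF and a median of 0.14. SPP1, osteopontin, is thus not among the values given. CCN1, a matricellular ligand of ITGAV and ITGA6 receptors, was at 4.44, 1.08, 0.13 and -1.13 in OF 2258, 0245, 0233 and 0234, and at 1.60, 0.01, -1.50 and -1.89 in YF 1070, 1072, 1127 and 1069. OF 2258 alone lay above all YF, with a difference of 1.58 (SE 1.22, n = 4 and 4), 0.28 within slide 1, 2.84 within slide 2 and 0.47 without OF 2258. THBS1, thrombospondin, differed by 1.23 (SE 0.74), -0.16 within slide 1 and 1.93 within slide 2, and by 0.42 without OF 2258. FBN1, fibrillin of elastic microfibrils, differed by -0.56 (SE 0.42, -1.82 and -0.01 within the slides, -0.20 without OF 0245), and NPNT, nephronectin, the ligand of ITGA8, by -0.29 (SE 0.46), which turned to 0.13 without YF 1070. Limma called 0 of the 12 at the adjusted p, against 0% of all transcripts, and 0 at the unadjusted p, against 2.42%. Without OF 2258, 5 were higher and 7 lower. The median turned to -0.02 without YF 1127.

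Of 15 basement membrane partners, 11 were tested between OF and YF, PXDN was not matched, and FRAS1 and FREM2 were among those not tested. FREM1, a basement membrane protein of the Fraser complex, was at -4.75, -5.74, -6.18 and -6.22 in OF 0234, 0245, 2258 and 0233, and at -6.87, -6.91, -8.35 and -8.76 in YF 1127, 1072, 1070 and 1069. It was well above background on 4 of 4 OF and 1 of 4 YF, and passed the filter only through OF, so the size of its difference is not given. FREM1 did not pass limma's adjusted p. HSPG2, perlecan, differed by 0.63 (SE 0.44, 0.25 without YF 1127), NID1, the nidogen that joins laminin to collagen IV, by -0.19 (SE 0.22, -0.05 without YF 1069), and COL4A1 by -0.18 (SE 0.27, -0.02 without OF 0233). In all, 6 were higher and 5 lower, with a median of 0.11, and without OF 2258 4 were higher and 7 lower, with a median of -0.10. Limma called 0 of the 11 at the adjusted p, against 0% of all transcripts, and 1 at the unadjusted p, against 2.42%. The groups did not overlap for 1 of the 11, against 1.54%. This was FREM1, and because it passed the filter only through OF, its separation is not used either.

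Of 11 other laminin receptors, 10 were tested (DAG1, dystroglycan, was not), with 6 higher and 4 lower in OF and a median of 0.01 (-0.03 without YF 1127). Limma called 0 of the 10 at the adjusted p, against 0% of all transcripts, and 0 at the unadjusted p, against 2.42%. SGCA, the sarcoglycan of muscle membranes, was at -0.08, -1.89, -2.88 and -3.31 in OF 2258, 0234, 0245 and 0233, and between -3.42 and -2.95 in the YF. It differed by 1.17 (SE 0.62, n = 4 and 4), 0.24 within slide 1 and 1.54 within slide 2, by 0.52 without OF 2258 and by 0.01 with the smooth muscle level as a covariate. SGCD, another sarcoglycan, differed by -0.31 (SE 0.52, 0.09 without YF 1069), RPSA, the ribosomal protein once named the laminin receptor, by 0.16 (SE 0.16, 0.04 without OF 2258), and SDC1, syndecan of epithelium, by -0.21 (SE 0.27, 0.03 without OF 2258).

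**Figure D4:**
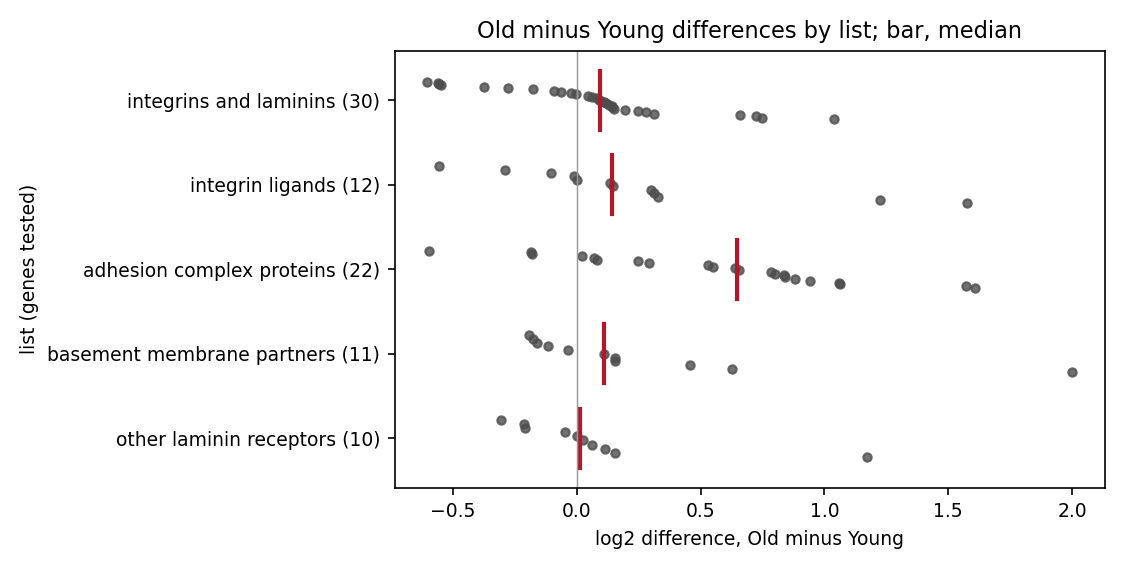
Old minus Young log2 difference (x axis) of each tested gene in 5 lists (y axis, with the number of genes tested), with bars at the list medians over 4 OF and 4 YF. The adhesion complex proteins lie mostly above 0, with a median of 0.65, and the integrins and laminins around 0.09.

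Next to YF and to OF, the contemporary cows had 0 members past limma's adjusted p, and their values overlapped those of either group for every member tested. These 2 comparisons share the 3 contemporary cows, and each shares a group with Old minus Young, so their values are given side by side and not as repeats of one another. Slide 1 carries none of the 3 cows, so that the value with slide as a block is also that within slide 2.

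Against YF, 29 members were tested and 0 passed limma's adjusted p of 0.05, as did 0% of the 19993 transcripts. At the unadjusted p it was 0 of 29, against 3.04% of all transcripts, and the groups did not overlap for 0 of 29, against 3.84%. The median log2 difference was 0.10 against -0.02 for all transcripts, with 19 members higher in contemporary cows, a count of 12 without YF 1127. LAMA3, the alpha chain of the hemidesmosome laminin, was at -1.33, -3.04 and -3.29 in contemporary cows 1128, 1129 and 1068, and at -2.80, -2.96, -3.21 and -4.29 in YF 1070, 1069, 1072 and 1127. Cow 1128 alone lay above all YF. LAMA3 differed by 0.76 (SE 0.54, n = 3 and 4), 1.07 with slide as a block and 0.15 without cow 1128. ITGA7 differed by 0.50 (SE 0.39, 0.96 with the block, 0.88 without YF 1072), and ITGB2 and ITGAL, the chains of the leukocyte receptor LFA, by 0.40 (SE 0.21, 0.54 with the block, 0.19 without cow 1129) and 0.38 (SE 0.25, 0.63 with the block, 0.20 without YF 1127). For ITGB2, contemporary cows had 1.27, 0.64 and 0.61, and YF 0.62, 0.52, 0.41 and 0.19, so that 2 cows lay above all YF.

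On the other side stood ITGAV with -0.65 (SE 0.47, -0.48 with the block, -0.15 without contemporary cow 1068), ITGB5 with -0.38 (SE 0.44) and ITGA10, a collagen receptor chain of cartilage, with -0.28 (SE 0.46). ITGB5 turned to 0.02 and ITGA10 to 0.27 with the block, and to 0.02 without cow 1129 and 0.06 without YF 1070. Cow 1068 had the lowest ITGAV level of the 3, -5.80, against -4.39 and -4.24, and 1 of the 2 ITGAV probes was not well above background on its array. The other tested transcript of ITGB1 differed by -0.09 against 0.11 for the transcript used. That of ITGA3 is not given, because 1 of its 2 probes was well above background on 1 of the 11 arrays. The 2 probes gave the same sign for 23 of 29 members.

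Against OF, 30 members were tested and 0 passed limma's adjusted p, as did 0% of the 19914 transcripts. At the unadjusted p limma gave 1 of 30 (ITGB3, which passed the filter only through OF), against 4.57% of all transcripts, and the groups did not overlap for 0 of 30, against 5.82%. The median log2 difference was 0.0023 against -0.04 for all transcripts, with 15 members higher and 15 lower in contemporary cows. The ITGB3 level was -5.61, -7.27 and -7.41 in contemporary cows 1128, 1068 and 1129, and -5.16, -5.66, -5.69 and -5.84 in OF 2258, 0245, 0234 and 0233. Cow 1128 lay among the OF and the other 2 below them, and ITGB3 was well above background on 2 of the 3 contemporary arrays. The size of its difference is therefore not used.

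ITGA8, ITGB7 and ITGA1 had lower means in contemporary cows than in OF, with log2 differences of -0.68 (SE 0.57), -0.66 (SE 0.41) and -0.57 (SE 0.40), and of -0.99, -0.83 and -0.82 with the block. The ITGA8 level of contemporary cows 1068, 1128 and 1129 was -1.83, -2.49 and -3.13, the ITGB7 level -1.0, -0.79 and -0.30, and the ITGA1 level -0.48, -0.92 and -0.99. Without OF 2258 these differences were -0.23, -0.32 and -0.24. Higher in contemporary cows stood LAMB3 with 0.53 (SE 0.60, 0.94 with the block, 0.17 without OF 2258 and 0.0005 without cow 1128), LAMA3 with 0.52 (SE 0.46, 0.58 with the block, -0.10 without cow 1128), ITGAL with 0.44 (SE 0.23, 0.50 with the block) and ITGB8 with 0.38 (SE 0.68, 0.68 with the block, -0.21 without OF 2258). The 2 probes gave the same sign for 22 of 30 members.

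The lists gave 0 calls by limma at the adjusted p in both comparisons, where 0% of all transcripts passed. Of the adhesion complex proteins, 13 were higher and 10 lower than in YF, with a median of 0.03 (-0.06 without YF 1127), and 5 higher and 18 lower than in OF, with a median of -0.64 (-0.23 without OF 2258). The mean smooth muscle level was 1.21 in OF and -0.64 in the contemporary cows, and its part in this difference was not tested. Of the integrin ligands, 9 were higher and 3 lower than in YF, with a median of 0.42 (0.17 without YF 1127), and 7 higher and 5 lower than in OF, with 0.11 (0.53 without OF 2258, -0.0005 without cow 1068). Of the other laminin receptors, 8 were higher and 2 lower than in YF, with 0.14 (0.06 without cow 1128), and 7 higher and 3 lower than in OF, with 0.12 (-0.02 without cow 1128). The basement membrane partners had medians of 0.06 (-0.10 without YF 1127) and 0.04 (-0.11 without cow 1068). Against OF, their groups did not overlap for 3 of 11, against 5.82% of all transcripts. At the unadjusted p limma gave 2 of these 11, against 4.57%. FREM1, which passed the filter only through OF, is among the 11. Against YF these counts were 1 and 1 of 10, against 3.84% and 3.04%. The other lists had 0 or 1 in each of these counts.

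**Figure D5:**
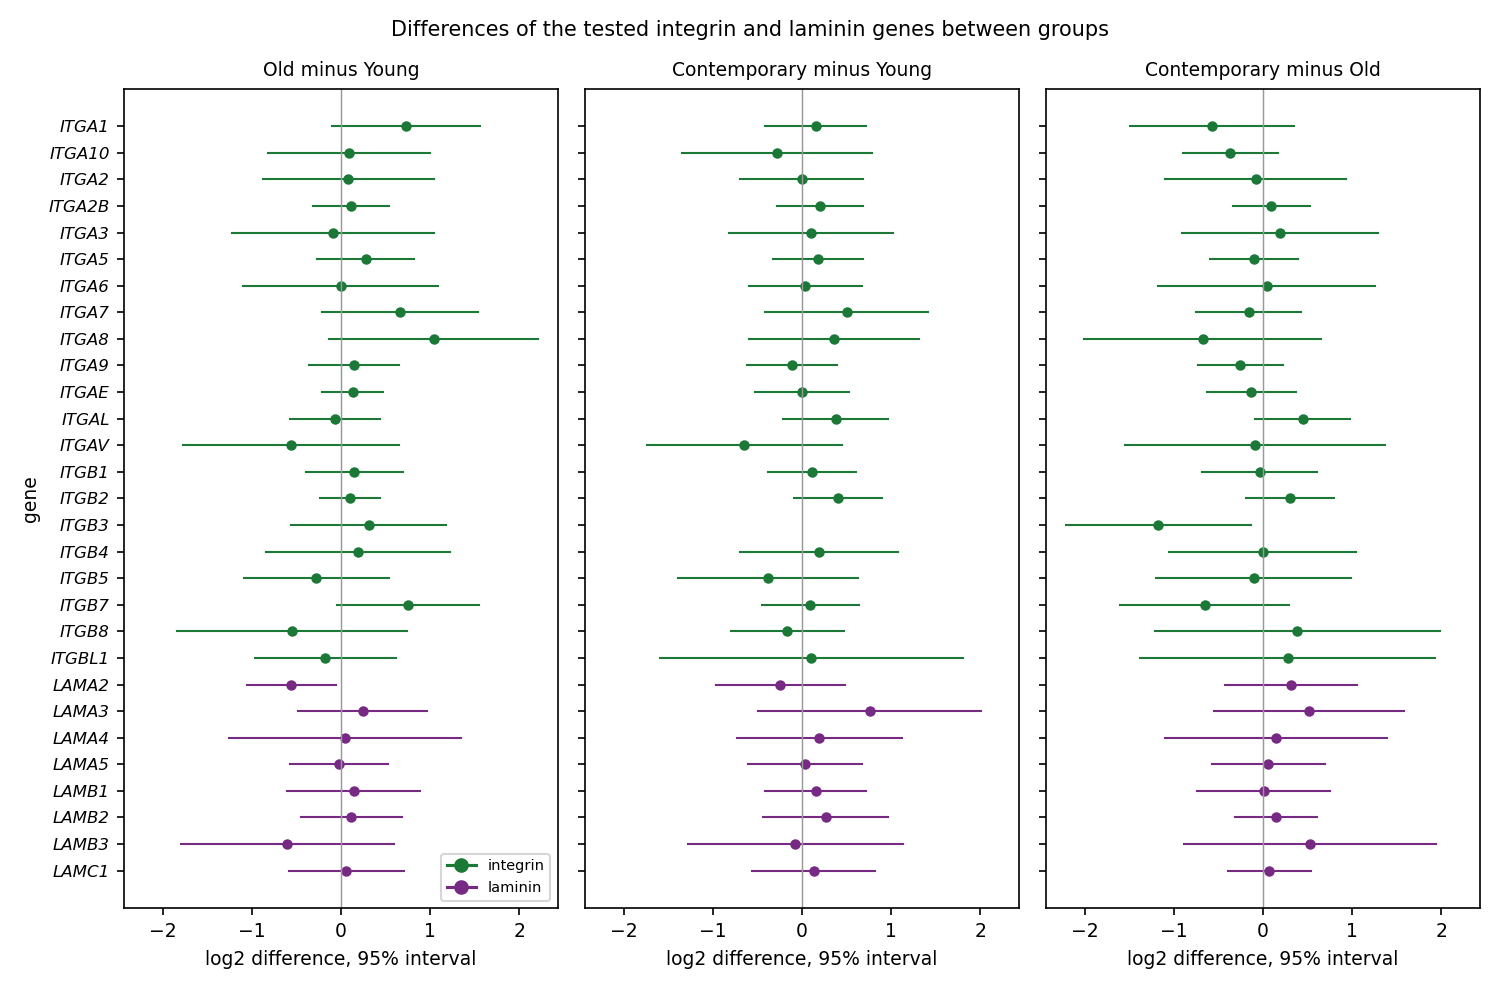
Log2 difference (x axis, points) with its 95% interval (lines) for 29 tested integrin and laminin genes (y axis) in the 3 comparisons, from limma on 4 OF, 4 YF and 3 contemporary cows. The interval of LAMA2 (-1.06 to -0.06, Old minus Young) leaves out 0, and 0 genes passed the adjusted p. The Contemporary minus Old interval of ITGB3 also leaves out 0, and ITGB3 passed the filter only through OF.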

How the data were processed

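Biopsies of 12 cows were each read on 1 array. The authors deposited for every spot a processed 1-colour intensity from Agilent Feature Extraction 10.7.3.1, detrended and background-corrected within the array and not normalized between arrays. Values here are the log2 of that intensity after subtracting, on the log2 scale, each array's own 75th percentile (an intensity of 968 to 1597). Control spots (1319) and probes carrying an outlier flag (66) were dropped. Averaging spots per probe and then probes per transcript left 61333 probe names (50922 sequences) and 26323 transcripts.

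Of the 45 member transcripts, 27 were named through RefSeq accessions (names of assembly ARS-UCD2.0, no coordinates used) and 18 by the gene name in the files. The files call LAMB2 transcripts LAMC1, and ITGB3 INTB3. Each comparison used only the arrays of its groups in limma 3.58.1 (R 4.3.3), two-sided, with Benjamini-Hochberg adjustment over all transcripts tested. FCROS was coded from its published description (f-values beyond 0.025 and 0.975, fold change 1.5). The limma fits were tested on simulated data, FCROS was not. Alternatives were other normalizations, background corrections and probe choices, slide, marker levels as covariates, cow 1111 and each animal left out.

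The rule for named genes takes the 6 largest Old minus Young differences in each direction, the 4 largest in each direction for the contemporary comparisons, the 4 largest slopes past the threshold, the 2 largest in each direction of each list, and every member not tested. Other members named for a slope, and genes named for animals, probes or transcripts, were chosen after their values were seen. Results of 1 member and 1 list gene are not reported here, though the counts include them. The members and lists were chosen with earlier results of these data known.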

Additional observations from a re-analysis of the deposited data

Results flagged for a closer look

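Over the 30 tested members and the 6 marker lists, 72 groups of 4 animals (OF and YF) were checked for an animal far from the other 3, and chance flags about 1 in 20 groups. In 2 of the 72 an animal stood apart. For ITGA7, YF 1072 was at 0.78 and the other YF between -0.85 and -0.58. For LAMC1, OF 2258 was at -1.72 and the other OF between -2.32 and -2.22. The cause was not tested.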

How the results depend on the processing

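For Old minus Young, FCROS called 4 members where limma called 0. With the smooth muscle level as a covariate, signs turned for ITGB8 (0.50), ITGB5 (0.095), ITGA5 (-0.0059), NPNT (0.038), FLNA (-0.075), HSPG2 (-0.019), NID1 (0.023), RPSA (-0.0040) and SDC1 (0.14). With the brightest probe NPNT was 0.31 and NID1 0.25, with normexp background correction NID1 was 0.020 and SGCD 0.036, and with quantile normalization RPSA was -0.037. With slide as a block, ITGB5 was 0.024 and ITGA10 0.27 in Contemporary minus Young.

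With each animal left out in turn, Old minus Young ran from -0.90 to 0.043 for ITGB8, -0.54 to 0.13 for NPNT, -0.56 to 0.086 for SGCD and -0.36 to 0.032 for SDC1. For ITGB3, which passed the filter only through OF and is not used, the sign turned (-0.029 to 0.60). Contemporary minus Young ran from -0.84 to 0.017 for ITGB5 and -0.65 to 0.062 for ITGA10, with 12 to 20 members higher. Contemporary minus Old ran from -0.098 to 0.88 for LAMA3 and -0.21 to 0.73 for ITGB8.

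Members with a slope on the smooth muscle level numbered 4, and 2 with quantile normalization, 1 with slide as a block and 0 to 6 with each animal left out. On the epithelial level they numbered 10, and 0 to 11 with each animal left out. In settings chosen after seeing the data, the smooth muscle and epithelial counts were 0 and 0 without the 2 farthest animals, 0 and 6 on slide 2 alone, and 0 and 0 with both levels in 1 fit. The cause was not tested.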

Other observations

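Contemporary cow 1111, which the comparisons leave out, lay outside the range of the other 3 contemporary cows for 12 of the 30 tested members, and for 43.6% of all transcripts. Its array was on slide 1 and theirs on slide 2, so that animal and slide cannot be told apart here. ITGA2B (-0.22) and ITGB3 (-4.69) lay above all 11 cows compared, and LAMB1 (2.79) lay below them all. Its smooth muscle level was -0.46 and its epithelial level 0.46.

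Where the same probe sequence stood on the array under more than 1 name and was well above background (18 sequences of 10 members), the names differed within an array by a median of 0.095 on the log2 scale. The widest difference on a single array was 1.26, for a sequence of ITGAV. LAMB2, a laminin beta chain of vessels and muscle, had 2 transcripts whose Old minus Young differences had opposite signs, 0.12 and -0.09.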
